A study of Mus musculus with 5 samples.

Results

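Ependymal cells line the brain ventricles and carry tufts of motile cilia that move cerebrospinal fluid. The shaft of such a cilium, the axoneme, is built from microtubule doublets around a central pair, with dynein arms as motors, radial spokes as signal relays and nexin links as springs. Most of its parts are made in few brain cell types, under Foxj1 and the RFX transcription factors, and many also serve the sperm tail. A set of 39 mouse genes of this machinery was examined, from its transcription factors to its dyneins, spokes, central apparatus and inner microtubule proteins. They were chosen by function, with earlier results of these data known. Each was read from the array probes whose RefSeq accession carries the gene's name. Of the 39 genes, 35 had a named probe, out of 21149 genes named on the array. Dnah12, Lrrc23, Cfap54 and Ccdc40 had none and were not analysed here. Dnah9 and Spag17 were not well above background on any array, which left 33 genes among the 16891 tested.

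The study compared glioma tissue with normal brain of mice, all at postnatal day 150, with 3 glioma arrays and 2 normal brain arrays. Total RNA was labelled with Cy3 and hybridised in a single colour to Agilent mouse arrays. The tumours are labelled as coming from a MADM model, which is mosaic analysis with double markers, a method that leaves sparse, colour-marked mutant cells after recombination during cell division. The labels name no strain, mutated gene, brain region or number of animals, so they do not say whether a sample held ventricle wall. Precision is limited by having 5 arrays. Since separate animals are not stated, the spread that p-values rest on may be technical. A level below is the log2 processed signal minus the 75th percentile of its own array. Levels can be compared between arrays for a probe, but not between probes. Changes are glioma minus normal brain on the log2 scale, from limma, and are given ± SE with n = 3 gliomas and n = 2 normal samples.

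Signal was well above background for 65.9% to 70.3% of spots on the glioma arrays and for 61.5% to 64.0% on the normal brain arrays, and no spot was saturated. All arrays shared 1 slide, with gliomas on one row and normal brain on the other, and the effect of the row and that of the group cannot be told apart. Glioma 3 differed in sex from the other samples. Its Xist level was 0.21, against -7.40 and -7.23 in gliomas 1 and 2 and -6.97 and -6.82 in normal brain. In bulk RNA, fewer cells of a type and less RNA per cell cannot be told apart.

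Transcripts of the motile cilium were lower in the gliomas. Of the 33 genes tested, 25 fell at an adjusted p under 0.05, none rose and 8 did not pass. Over all genes tested, 27.5% fell and 24% rose by the same test, 51.5% in either direction. The median change of the 33 genes was -2.20 on the log2 scale, against -0.04 for all genes. Falls of at least 2-fold that passed were found in 24 of them, against 19.9% of all genes. The levels of the 2 groups did not overlap in 29 genes that were lower in glioma and in 1 that was higher, against 38.5% and 35.6% of all genes. A gene was tested if well above background on at least 2 of the 5 arrays. Ak7, Tmem212, Cfap65, Cfap43 and Rfx2 met this only through normal brain, where they were higher, and Spag16 only through glioma. Among the 25 genes well above background on all 5 arrays, 21 fell and the median was -1.91.

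**Figure D1:**
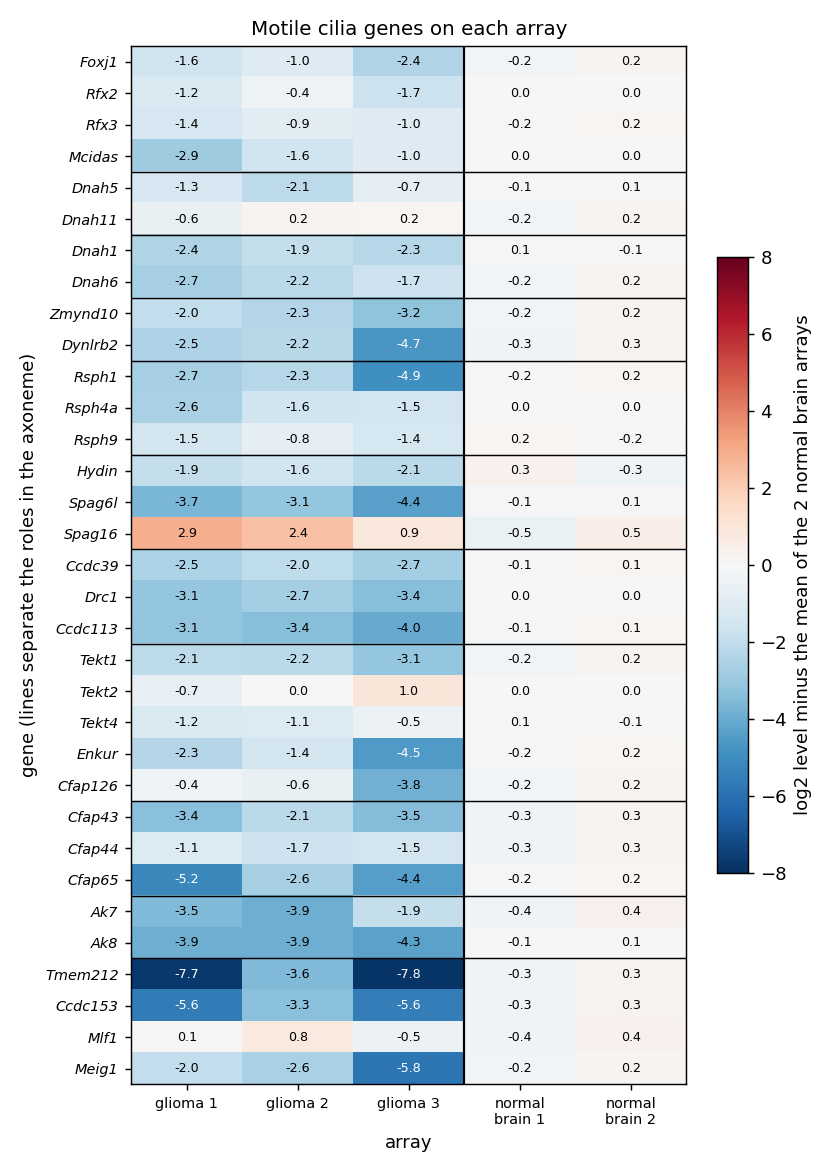
Log2 level of the 33 tested genes (rows, grouped by role) on each of the 5 arrays (columns), minus the mean of the 2 normal brain arrays. Blue marks lower and red higher values. The gliomas are below normal brain in 29 genes, and Spag16 is above it on all 3 glioma arrays.

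The number of calls depended on both normal brain arrays. Without normal brain replicate 1 it was 16, and without replicate 2 it was 12, while all 25 genes kept a negative change in these fits. In 12 of the 25 genes the call held under every alternative in which the gene was tested. With normexp background correction, which adds an offset and so shrinks changes of dim probes, 28 genes fell and the median was -1.41.

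The transcription factors came first in the order of the program. Foxj1, the forkhead factor that switches on motile cilium genes, had levels of -1.88, -1.31 and -2.71 in the gliomas, against -0.53 and -0.07 in normal brain. It fell 3.18-fold (log2 change -1.67 ± 0.44, adjusted p = 0.0285). All glioma levels lay below both normal brain levels, yet all 3 remained well above background. Rfx3, which binds promoters of cilium genes, had levels of -2.98, -2.49 and -2.63, against -1.79 and -1.47, and fell by 1.07 ± 0.21 (adjusted p = 0.0111). Its other probes fell by 0.95 ± 0.25 and 0.79 ± 0.20 in a fit over all probes (adjusted p = 0.0335 and 0.0302), so its 3 probes moved in 1 direction. Rfx2, a related factor, had levels of -5.92, -5.11 and -6.39 in the gliomas, against -4.72 and -4.64 in normal brain. The groups did not overlap, but Rfx2 was detected on 1 of 3 glioma arrays and did not pass (-1.13 ± 0.39, adjusted p = 0.0619).

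Mcidas encodes multicilin, the coactivator that starts the multiciliated cell program. Its levels were 3.13, 4.42 and 4.96 in the gliomas, against 5.97 and 6.03 in normal brain, a fall of 1.83 ± 0.55 (adjusted p = 0.0422). The probe was thus far above the 75th percentile on every array, in both groups. The probe is assigned to Mcidas by its RefSeq accession, and whether it reads that transcript alone was not checked. Without Mcidas, 24 of 32 tested genes fell. The calls of Foxj1, Rfx3 and Mcidas were lost in the unscaled values that the authors deposited (adjusted p = 0.0766, 0.0661 and 0.0721). There the median change of all genes was 0.31. Foxj1 also did not pass without glioma replicate 1 or without either normal brain array (adjusted p = 0.0661 to 0.144), Rfx3 without normal brain replicate 2 (0.0914), and Mcidas without glioma replicate 2 or either normal brain array (0.0837 to 0.153).

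Other regulators of the multiciliated cell were split, in a list of 18 that includes the 4 just described. Of 16 tested, 7 fell and 5 rose, with a median of -0.46. Gmnc, the geminin-like protein that acts upstream of Mcidas, was well above background on no glioma array and on both normal brain arrays. Its levels were -7.41, -7.72 and -7.47 in the gliomas, against -4.27 and -4.48 in normal brain, at least 2.61-fold lower (adjusted p = 0.000416). For that bound, each glioma array counted as the dimmest signal still called well above background there, or as the signal of Gmnc if this was brighter. Ccno, a cyclin needed to multiply centrioles in these cells, fell by 1.83 ± 0.23 (adjusted p = 0.00269). By contrast Myb, which acts both in dividing progenitors and early in multiciliated cells, rose by 2.41 ± 0.18 (adjusted p = 0.000651), and Tedc1, of a centriolar tubulin complex, by 3.58 ± 0.24 (adjusted p = 0.000552).

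RFX factors recognise a short core, GTTGCC, often found as an inverted repeat in promoters of cilium genes, and the promoters of genes that fell together are shown for that reason. RefSeq promoter windows of mouse build GRCm38.p6, from 250 bases before to 50 after the start site, were matched for 34 of the 39 genes by symbol. Foxj1, Rsph1, Rsph4a, Cfap54 and Cfap65 were not matched. Searched on both strands, GTTGCC lay in 19 of 41 windows of these genes (46.3%), against 12.5% of all 32851 windows. The variant GTTGCTA lay in 11 of 41 (26.8%), against 3.66% of all windows, and the forkhead core TGTTTAC in 3 (7.32%), against 3.65%. The base composition of the windows was not matched. GTTGCC was found in 12 of 21 genes that fell and had a window, and in 5 of 8 tested genes with a window that did not pass. The 5 windows with GTTGCC whose genes had the largest falls follow, 5′ to 3′ on the strand of the gene, with both cores in capitals on either strand.
Ccdc153 (chr9:44240427-44240726, plus strand): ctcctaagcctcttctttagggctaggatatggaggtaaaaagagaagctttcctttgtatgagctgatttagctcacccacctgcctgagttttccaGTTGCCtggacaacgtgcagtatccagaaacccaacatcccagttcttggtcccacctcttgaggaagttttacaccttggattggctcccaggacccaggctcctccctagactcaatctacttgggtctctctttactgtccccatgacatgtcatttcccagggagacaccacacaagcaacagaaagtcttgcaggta
Spag6l (chr16:16829314-16829613, minus strand): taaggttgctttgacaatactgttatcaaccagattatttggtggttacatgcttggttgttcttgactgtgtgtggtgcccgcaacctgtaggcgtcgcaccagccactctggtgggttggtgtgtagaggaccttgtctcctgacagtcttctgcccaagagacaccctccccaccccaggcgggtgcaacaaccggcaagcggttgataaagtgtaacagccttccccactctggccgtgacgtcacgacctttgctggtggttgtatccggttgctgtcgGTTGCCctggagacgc
Ccdc113 (chr8:95533850-95534149, plus strand): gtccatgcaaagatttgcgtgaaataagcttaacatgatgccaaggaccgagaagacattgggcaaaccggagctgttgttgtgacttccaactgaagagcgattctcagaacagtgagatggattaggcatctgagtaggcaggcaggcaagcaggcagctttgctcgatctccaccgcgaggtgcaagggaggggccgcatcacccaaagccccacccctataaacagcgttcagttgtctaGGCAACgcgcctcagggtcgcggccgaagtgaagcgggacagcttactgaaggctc
Dynlrb2 (chr8:116504765-116505064, plus strand): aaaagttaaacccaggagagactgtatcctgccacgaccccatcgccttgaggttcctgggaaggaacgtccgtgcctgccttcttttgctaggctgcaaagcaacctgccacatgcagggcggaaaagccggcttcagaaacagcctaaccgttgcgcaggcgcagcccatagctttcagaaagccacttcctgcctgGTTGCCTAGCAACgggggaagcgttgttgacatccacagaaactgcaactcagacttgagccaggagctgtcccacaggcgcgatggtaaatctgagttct
Drc1 (chr5:30281143-30281442, plus strand): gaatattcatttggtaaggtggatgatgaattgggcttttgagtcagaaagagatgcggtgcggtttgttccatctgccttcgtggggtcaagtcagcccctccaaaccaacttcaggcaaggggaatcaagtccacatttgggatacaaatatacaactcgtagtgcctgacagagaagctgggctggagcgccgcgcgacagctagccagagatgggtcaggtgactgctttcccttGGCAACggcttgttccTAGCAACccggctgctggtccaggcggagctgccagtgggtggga
In the Dynlrb2 window the 2 cores abut in opposite orientation, and in the Drc1 window they stand close together across the start site of that window. A match describes the letters in the window and is no measured binding site.

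The dynein motors fell unevenly. Dnah1, an inner arm heavy chain, had levels of -4.49, -4.05 and -4.40 in the gliomas, against -2.03 and -2.19 in normal brain, and fell 4.60-fold (log2 change -2.20 ± 0.19, adjusted p = 0.000896). Dnah6, another inner arm chain, had levels of -2.46, -1.96 and -1.44, against 0.02 and 0.41, and fell by 2.17 ± 0.34 (adjusted p = 0.00512). In both genes every glioma lay below both normal brain samples. Dnah5, the outer arm chain, had levels of -3.53, -4.27 and -2.91, against -2.29 and -2.10, and fell by 1.37 ± 0.41 (adjusted p = 0.0414). The Dnah5 call was lost in the authors' value table, without glioma replicate 1 and without either normal brain array (adjusted p = 0.0543 to 0.169). Dnah11, an outer arm chain known from airway cilia, had overlapping levels of -3.13, -2.29 and -2.35 in the gliomas and -2.74 and -2.29 in normal brain. Its change of -0.07 ± 0.32 did not pass (adjusted p = 0.866).

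The 2 genes for proteins that assemble or accompany the dyneins both fell. Zmynd10, needed in the cytoplasm to preassemble dynein arms, fell by 2.52 ± 0.41 (adjusted p = 0.00599). Dynlrb2, a roadblock light chain whose promoter is printed above, had levels of -1.16, -0.87 and -3.33 in the gliomas, against 1.04 and 1.62 in normal brain. It fell 8.65-fold (-3.11 ± 0.80, adjusted p = 0.0255), with glioma 3 much lower than gliomas 1 and 2.

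All 3 radial spoke head genes fell. Rsph1 had levels of -2.53, -2.13 and -4.78 in the gliomas, against -0.02 and 0.32 in normal brain, and fell 9.84-fold (-3.30 ± 0.83, adjusted p = 0.0245). The second Rsph1 probe fell by 2.37 ± 0.39 (adjusted p = 0.00775 over all probes) and was also lowest in glioma 3. Rsph4a fell by 1.91 ± 0.37 (adjusted p = 0.0109), its other probe by 1.68 ± 0.23, and Rsph9 by 1.23 ± 0.27 (adjusted p = 0.0147). Rsph9 had levels of 0.95, 1.59 and 0.96 in the gliomas, against 2.58 and 2.22 in normal brain, the smallest fall of the 3. The calls of Rsph1, Rsph4a and Dynlrb2 were lost without either normal brain array (adjusted p = 0.0621 to 0.121). The call of Rsph9 was lost without normal brain replicate 1 or 2 (0.103 and 0.0529) and in the authors' value table (0.0715).

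In the central apparatus 2 of 3 tested genes fell, and the probes of the third disagreed. Spag6l, a scaffold of the central pair, had levels of -4.24, -3.68 and -4.92 in the gliomas, against -0.67 and -0.46 in normal brain. It fell 13.1-fold (-3.71 ± 0.38, adjusted p = 0.00143), a gap several times the spread within either group. Hydin, a giant central pair protein whose loss gives mice hydrocephalus, had levels of -3.70, -3.36 and -3.90, against -1.45 and -2.08, and fell by 1.89 ± 0.27 (adjusted p = 0.00394). A second Hydin probe was at background level on all arrays.

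Spag16 encodes another central pair protein and is read by 3 probes that disagreed. Its brightest probe had levels of -2.32, -2.87 and -4.34 in the gliomas, against -5.75 and -4.73 in normal brain, where it was not well above background. It was at least 3.91-fold higher in glioma, but the fit did not pass (2.06 ± 0.68, adjusted p = 0.0533). A second probe was the reverse, with levels of -6.98, -7.97 and -7.74 in the gliomas, none well above background, against -4.91 and -4.19 in normal brain. It was at least 2.31-fold lower (adjusted p = 0.00356 over all probes). The third probe had levels of -3.77, -3.76 and -5.26, against -4.59 and -3.85, and a change of -0.05 ± 0.55 (adjusted p = 0.955). The first probe is assigned to RefSeq transcript NM_001271533 and the other 2 to NM_029160, so Spag16 has no single direction here.

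**Figure D2:**
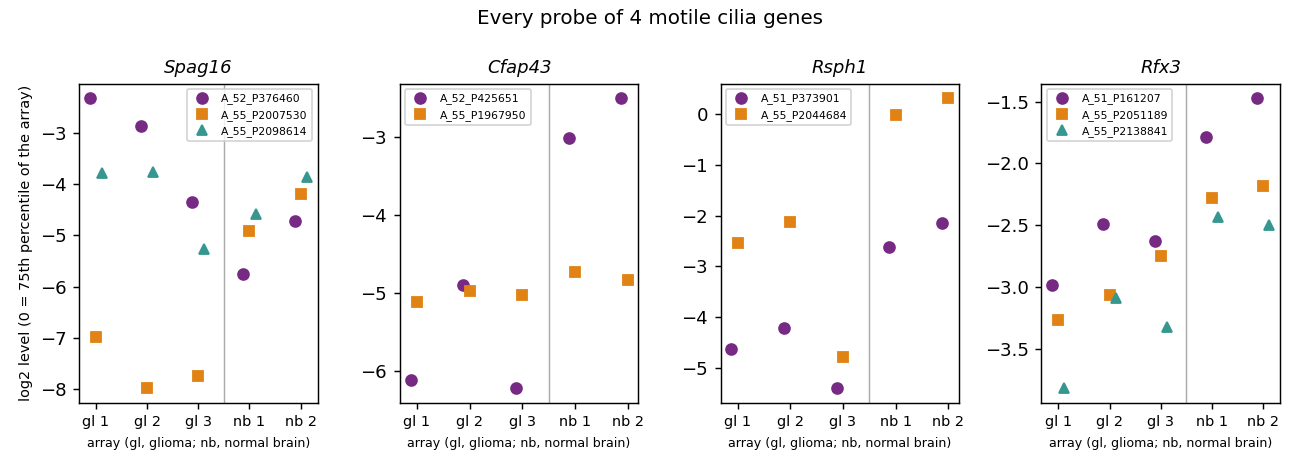
Log2 level (0 is the 75th percentile of the array) of every probe of Spag16, Cfap43, Rsph1 and Rfx3 on the 5 arrays, gliomas left of the line and normal brain right of it, with 1 symbol for each probe. The 3 Spag16 probes take different directions, the second Cfap43 probe is nearly level, and the probes of Rsph1 and of Rfx3 are all lower in glioma.

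All 3 tested genes of the nexin link and its spacing ruler fell. Drc1, the base of the nexin-dynein regulatory complex, had levels of -0.60, -0.24 and -0.95 in the gliomas, against 2.45 and 2.49 in normal brain. It fell 8.38-fold (-3.07 ± 0.24, adjusted p = 0.000729). Ccdc113, a coiled-coil protein near the nexin link, had levels of -2.83, -3.07 and -3.72, against 0.19 and 0.44, and fell 11.5-fold (-3.52 ± 0.30, adjusted p = 0.000885). Both promoters carry the RFX core within 11 bases before the start site that their printed window uses. The annotated first bases of the 2 genes, chr8:95534060 for Ccdc113 and chr5:30281335 for Drc1, lie upstream of that core. Ccdc39, which with Ccdc40 sets the repeat length along the doublet, had levels of -4.12, -3.61 and -4.28, against -1.70 and -1.43, and fell by 2.43 ± 0.25 (adjusted p = 0.00138). These 3 calls held under every alternative tried.

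Of 5 genes for tektins and other proteins inside the doublet, 2 fell. Tekt1, a filament protein, had levels of -1.39, -1.46 and -2.40 in the gliomas, against 0.52 and 0.91 in normal brain, and fell by 2.47 ± 0.36 (adjusted p = 0.00432). Its second probe fell by 2.46 ± 0.43. Tekt4 fell by 0.92 ± 0.26 (adjusted p = 0.034), a call lost without 4 of the 5 arrays in turn and in the authors' value table (adjusted p = 0.0709 to 0.177). Tekt2, in contrast, had levels of -3.70, -3.005 and -2.07 in the gliomas around those of normal brain, -3.03 and -3.03, and a change of 0.10 ± 0.48 (adjusted p = 0.872). Enkur, found inside doublets and in sperm, had levels of -4.09, -3.20 and -6.27, against -1.92 and -1.60, and did not pass (-2.76 ± 0.92, adjusted p = 0.0551). It was not well above background in glioma 3. It passed without glioma replicate 2 or 3 (adjusted p = 0.0344 and 0.0183) and with normexp (0.00491).

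Cfap43, Cfap44 and Cfap65, of the tethers and other axonemal parts, all fell. Cfap43, studied mainly in sperm tails, had levels of -6.12, -4.89 and -6.22 in the gliomas, with 1 of 3 arrays well above background, against -3.02 and -2.50 in normal brain. Its brightest probe fell by 2.98 ± 0.46 (adjusted p = 0.00521), while its second probe changed by -0.26 ± 0.15 and did not pass (adjusted p = 0.214 over all probes). Cfap44, the partner of Cfap43, fell by 1.41 ± 0.25 (adjusted p = 0.00812). Cfap65 fell by 4.06 ± 0.76 (adjusted p = 0.00942), with 1 of 3 glioma arrays well above background. The calls of Cfap44 and Cfap65 were lost without normal brain replicate 2 (adjusted p = 0.0615 and 0.0559).

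The adenylate kinases, which recycle nucleotides to supply the dyneins, both fell. Ak8 had levels of -4.75, -4.72 and -5.13 in the gliomas, against -0.89 and -0.78 in normal brain, and fell 16.3-fold (-4.03 ± 0.18, adjusted p = 0.000381). Its tumours were almost alike and its call held under all alternatives tried. Ak7 had levels of -7.68, -8.06 and -6.06 in the gliomas, none well above background, against -4.53 and -3.79 in normal brain, and was at least 3.02-fold lower (adjusted p = 0.0138). The Ak7 call was lost without normal brain replicate 2 (adjusted p = 0.0805).

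Tmem212 and Ccdc153 mark ependymal cells in brain atlases. Tmem212 encodes a membrane protein and had levels of -7.51, -3.35 and -7.63 in the gliomas, against -0.10 and 0.51 in normal brain. It was well above background in glioma 2 only among the tumours. Its fitted change was -6.37 ± 1.41 (adjusted p = 0.0161), a call lost without either normal brain array (adjusted p = 0.0657 and 0.0813), and the change was -3.50 with normexp. Ccdc153, a coiled-coil protein with the first promoter printed above, had levels of -3.81, -1.54 and -3.78, against 1.48 and 2.08. It fell 28.3-fold (-4.82 ± 0.78, adjusted p = 0.00575). In both genes glioma 2 stood above the other tumours and below normal brain.

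Meig1 and Mlf1 behaved unlike each other. Meig1, needed to build the sperm tail in mice, had levels of -2.32, -2.96 and -6.11 in the gliomas, against -0.57 and -0.15 in normal brain, and did not pass (-3.44 ± 1.18, adjusted p = 0.0601). It was not well above background in glioma 3. Its second probe passed over all probes (-3.12 ± 0.88, adjusted p = 0.0403). Mlf1, first named for a leukaemia fusion, had overlapping levels of -1.38, -0.67 and -1.93 in the gliomas and -1.81 and -1.08 in normal brain (change 0.12 ± 0.44, adjusted p = 0.835).

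**Figure D3:**
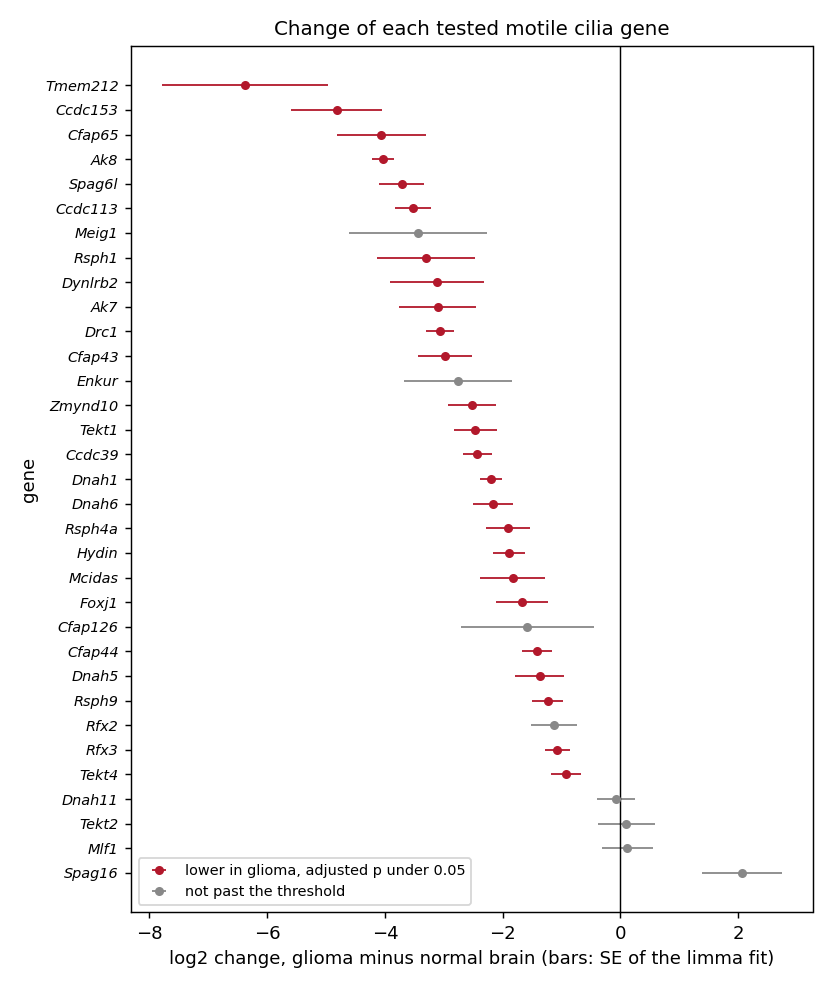
Log2 change of each tested gene, glioma minus normal brain (x axis), with bars for the standard error of the limma fit and genes ordered by the change. Red marks the 25 genes that fell and grey the 8 that did not pass, which include Meig1, Enkur and Cfap126 with wide bars.

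The tumours differed from one another in these genes. The SD among the 3 gliomas had a median of 0.64 in the 33 genes, against 0.26 over all genes tested. Such a spread was not particular to them. The median SD was 0.87 in mature oligodendrocyte, 0.81 in microglia and macrophage and 0.66 in astrocyte genes, and 0.16 to 0.49 in the other lists. By list medians, glioma 2 was highest and glioma 3 lowest also in mature oligodendrocyte, microglia, other motile cilium and primary cilium genes. The median of all genes tested took that order too, at -0.03, -0.02 and -0.06 from the normal brain mean in gliomas 1 to 3. Neuronal genes and the remaining lists did not. Glioma 3 was the lowest tumour in 19 of the 33 genes, against 40.5% of all genes, and glioma 2 the highest in 19, against 29.5%. Glioma 1 was the lowest in 11 and the highest in 7, against 30.3% and 36.9% of all genes. The number of the 33 genes well above background was 28, 32 and 26 in gliomas 1 to 3 and 32 in each normal brain sample. The median distance below the normal brain mean was nonetheless similar, at -2.33, -2.04 and -2.41 in gliomas 1 to 3.

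The 8 genes with the largest SD among gliomas fell into 2 patterns. In Tmem212, Ccdc153 and Cfap65, glioma 2 was the highest tumour, and Cfap65 had levels of -7.44, -4.90 and -6.67 in the gliomas, against -2.44 and -2.11 in normal brain. Tmem212 and Cfap65 were not well above background in gliomas 1 and 3, so the size of that gap is uncertain. In Meig1, Cfap126, Enkur, Rsph1 and Dynlrb2, glioma 3 stood far below gliomas 1 and 2. Meig1 and Enkur were not well above background in glioma 3, so the size of their gap is uncertain too. Cfap126, a doublet protein also called Flattop that helps place basal bodies in mice, showed the low level of glioma 3 most plainly. Its levels were 1.25, 1.03 and -2.22 in the gliomas, against 1.36 and 1.85 in normal brain, so that gliomas 1 and 2 were just below normal brain and glioma 3 far below. Its second probe gave -0.13, -0.44 and -3.11, against 0.01 and 0.34. Cfap126 did not pass (-1.58 ± 1.13, adjusted p = 0.289). Whether sex or another feature of glioma 3 has a part in this was not tested.

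**Figure D4:**
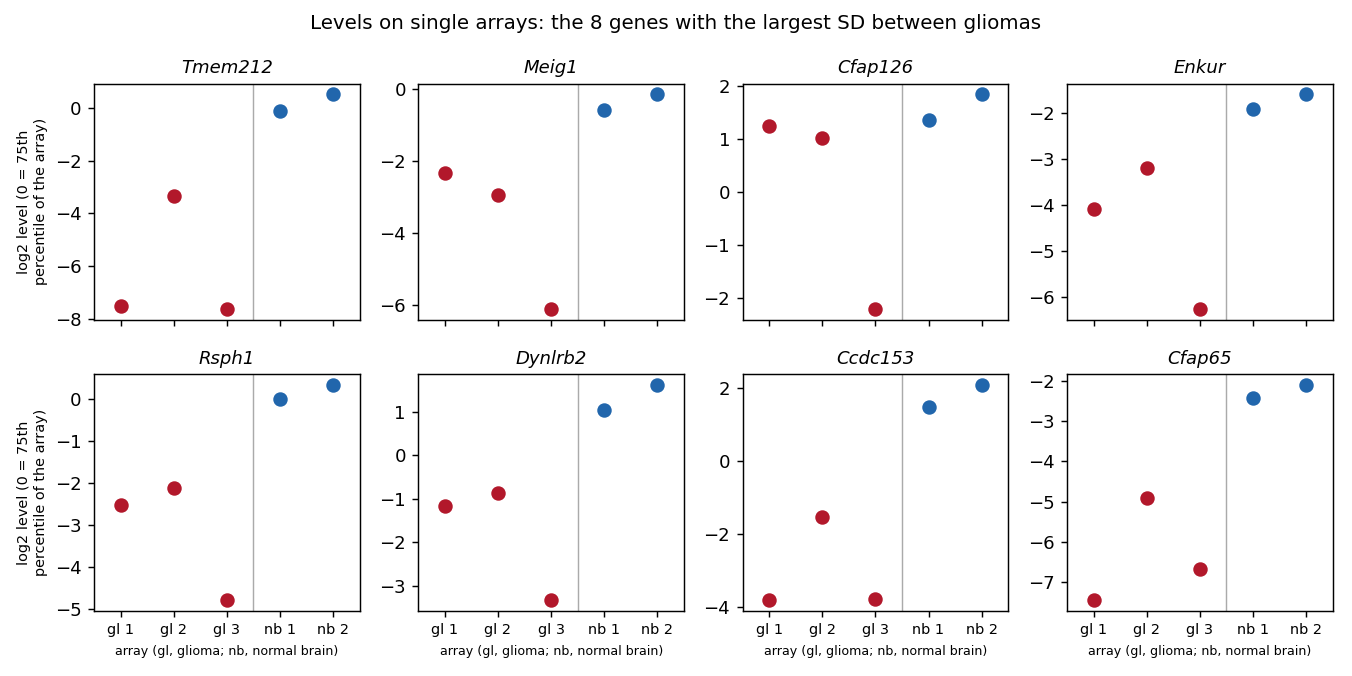
Log2 level (0 is the 75th percentile of the array) of the 8 genes with the largest SD among gliomas, on the 3 glioma arrays (red, left) and the 2 normal brain arrays (blue, right). Glioma 2 is the highest tumour for Tmem212, Ccdc153 and Cfap65, and glioma 3 is far below the other tumours for the other 5 genes. Not well above background were Tmem212 and Cfap65 in gliomas 1 and 3, and Meig1 and Enkur in glioma 3.

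Motile cilium genes outside the set were also lower in many cases. Of 97 listed, 80 were named on the array and 71 tested, of which 39 fell and 8 rose, with a median of -1.47. Over all genes, 27.5% fell and 24% rose. Only 55 of the 71 were well above background on all 5 arrays. Efcab1, Tctex1d4, Drc7, Stoml3, Lrrc34, Capsl, Cfap206 and Dnal1, which fell, were tested only through normal brain, where they were higher. Nme8 was tested only through glioma. Cfap52, found inside doublets, fell by 4.69 ± 0.99 (adjusted p = 0.0139, 2 of 3 glioma arrays well above background). Efcab1, a calcium-binding protein of the outer arm, fell by 4.37 ± 0.83 (adjusted p = 0.0098) and Tctex1d4, a dynein light chain relative, by 4.11 ± 0.83 (adjusted p = 0.0121), each well above background on 1 of 3 glioma arrays. Against this, the outer arm heavy chain Dnah8, best known from sperm, rose by 3.13 ± 0.19 (adjusted p = 0.000497). Nme8, a thioredoxin-like protein, was at least 1.82-fold higher (adjusted p = 0.00262). The number of genes that fell was 24 without either normal brain array.

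Genes shared with the primary cilium, which most cells carry, had smaller changes. Of 54 tested genes of intraflagellar transport and the primary cilium, 19 fell and 4 rose, with a median of -0.29. Over all genes, 27.5% fell and 24% rose. Rpgrip1l, Tctn2 and Bbs1, of the ciliary gate and the BBSome, fell by 1.68, 1.65 and 1.56. Mks1 of the gate rose by 2.03 and Bbs12, a chaperone for the BBSome, by 1.73. In the authors' unscaled values 9 fell and 9 rose, and without normal brain replicates 1 and 2 the falls numbered 8 and 6. Among 16 centriole duplication genes the median was 0.29, and 7 rose while 4 fell. The duplication kinase Plk4, well above background on 1 of 2 normal brain arrays, rose by 3.01 ± 0.69. Stil and Cep192, also of centriole assembly, rose by 2.15 and 1.99, and the centriole cap gene Ccp110 and the centriolar Poc1a fell by 2.05 and 0.88.

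**Figure D5:**
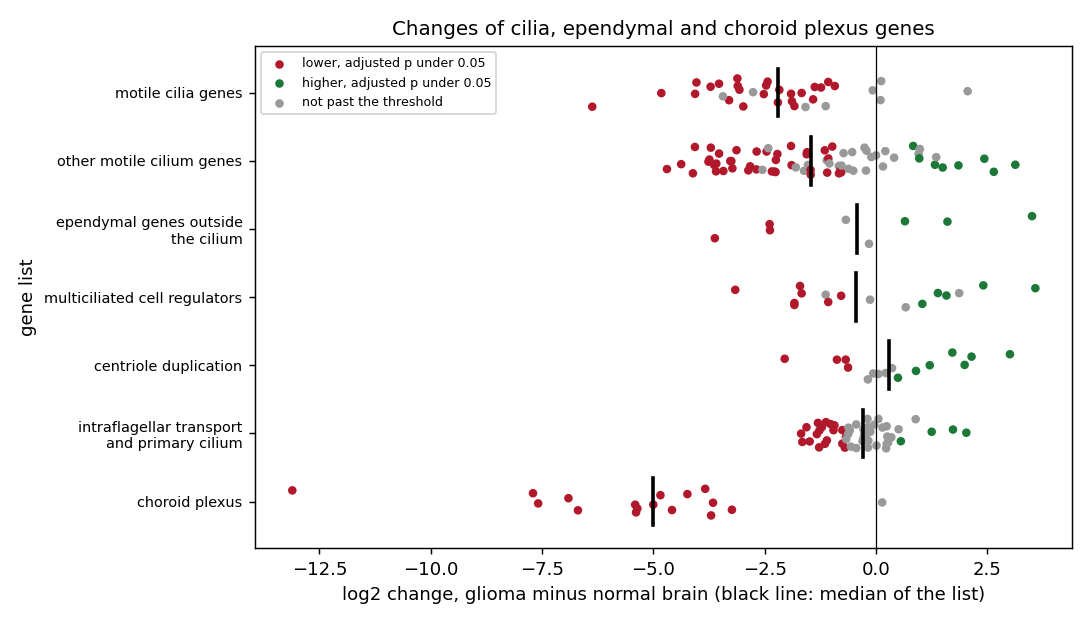
Log2 change, glioma minus normal brain (x axis), of every tested gene in 7 lists (rows), with a black line at the median of each. Red fell, green rose and grey did not pass. The motile cilia genes centre at -2.20, other motile cilium genes at -1.47, primary cilium genes at -0.29 and choroid plexus genes at -5.00.

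Ependymal genes that are no part of the cilium were split. Of 8 tested, 3 fell and 3 rose, against 27.5% and 24% of all genes. Rarres2, a secreted chemokine-like protein of ependyma, had levels of -0.08, 0.05 and -1.19 in the gliomas, against 1.82 and 2.13 in normal brain, and fell by 2.38 ± 0.42 (adjusted p = 0.00763). Mia and the lipid transfer protein gene Pltp fell by 2.39 and 3.62. Vim, an intermediate filament of ependyma and of many other glial and vessel cells, rose by 3.51 ± 0.34, and the surface protein gene Cd24a by 1.61 ± 0.17.

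Markers of other cell types also differed between gliomas and normal brain, some lists lower and others higher, and their part in the falls was not tested. Of 17 choroid plexus genes, the neighbouring ventricular epithelium, 16 fell, with a median of -5.00. Their summed signal, in units of each array's 75th percentile, was 2.19 to 3.20 in the gliomas, against 301 to 304 in normal brain. Ttr, the thyroid hormone carrier of that epithelium, had levels of -5.43, -5.19 and -4.63 in the gliomas, against 8.04 and 8.01 in normal brain. The change of Ttr, -13.11 ± 0.27, was larger than that of any motile cilia gene. Kcne2, a potassium channel subunit, changed by -7.70 and the folate receptor gene Folr1 by -7.59, with Kcne2 well above background on 1 of 3 glioma arrays and Ttr on 2. The summed signal of the 33 tested motile cilia genes was 17.5 to 36.9 in the gliomas, against 94.0 to 102 in normal brain. Without the very bright Mcidas probe it was 5.75 to 10.9, against 31.3 to 36.6.

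For the counts that follow, 27.5% of all genes fell and 24% rose by the same test. Neuronal genes fell in 11 of 11 cases, with changes of -4.72 and -4.66 for Nefm and Nefl, of the axonal filaments. The summed signal of the 11 genes was 45.6 to 70.2 in the gliomas, against 466 to 477 in normal brain. Genes of mature oligodendrocytes fell in 6 of 8 cases (58.8 to 388 in the gliomas, against 364 to 399), with Opalin, Aspa and Mobp falling by 4.95, 3.28 and 3.14. Endothelial genes fell in 6 of 8 cases (15.8 to 18.7 in the gliomas, against 29.1 to 32.4), with Flt1, Slco1c1 and Tek falling by 2.28, 2.19 and 2.02. Of 10 astrocyte genes, Gja1, Gjb6 and Slc1a2 fell by 3.14, 3.09 and 2.08, and Sox9 rose by 1.59 (237 to 403 in the gliomas, against 420 to 427). Genes of oligodendrocyte progenitors rose in 7 of 7 cases (443 to 503 in the gliomas, against 52.5 to 53.9), with Cspg4, Pdgfra and Olig2 rising by 4.75, 4.57 and 4.498. Genes of cell division rose in 7 of 7 cases (30.3 to 56.6 in the gliomas, against 0.966 to 1.09). Among them Ccnb1 and Top2a rose by 7.61 and 6.69, each well above background on 1 of 2 normal brain arrays, and Cdk1 was at least 29.4-fold higher. Genes of microglia and macrophages rose in 4 of 9 cases (79.5 to 219 in the gliomas, against 61.8 to 64.4), with C1qa, C1qc and Cd68 rising by 2.03, 1.91 and 1.87. None of these genes is a member of the motile cilia set.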

How the data were processed

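Total RNA of 3 gliomas and 2 normal brain samples was read on 1-colour Agilent arrays, 1 array a sample. Each deposited scanner file gives 1 array's spot intensity values. The submitters' processing notes name Agilent Feature Extraction, version 10.7.3.1, as the authors' software. The column used is the processed signal of that software. Of the other deposited columns, the median signal and local background are intensity values too, and those for saturation, outliers and signal well above background are flags of 0 or 1. A table of log2 values was also deposited by the authors, and it equalled the log2 processed signal on every array (median difference 0, r = 1).

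Control spots and 23 probes with outlier flags were left out, spots of a probe averaged, and the log2 processed signal set relative to the array's 75th percentile. Probes were named by RefSeq accession: 28019 of 55658 probes, for 21149 genes. A gene was read from its brightest probe and tested if 2 or more arrays had it well above background. The test was limma's moderated linear model (version 3.58.1, R 4.3.3), two-sided, with p-values adjusted by Benjamini-Hochberg over 16891 genes and a threshold of 0.05. Python 3.11.15, pandas 2.3.3, the R package data.table (version 1.17.8) and matplotlib 3.10.9 served for tables and figures.

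On simulated data with 16891 genes the fit recovered 9.3% of 2-fold and 51.9% of 4-fold changes, with 2.86% false calls. Each of the 10 simulated runs changed only 100 genes 2-fold and 100 genes 4-fold. In the data 51.5% of genes passed. The adjustment of p-values depends on the share of changed genes, so the simulated rates need not hold for these data. The scanner files hold no mean signal, so normexp used the median signal and local background with an offset of 50. Other alternatives were quantile normalization, median centring, the authors' value table, other filters and probe rules, leaving out each array, and the replicate number as a block. The fit of every probe was chosen after seeing the data. All arrays shared 1 slide, so no slide block could be fitted.

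The genes and lists were chosen with earlier results of these data known. Every gene of the set is accounted for. From each other list the text names at most 3 called genes that changed most in the list's prevailing direction, and at most 2 that went the opposite way, and 1 gene that this rule names is not reported here. Xist and the genes in the closing section were chosen after their values were seen, as were the promoter motifs. Some list names were matched through older symbols.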

Additional observations from a re-analysis of the deposited data

How the results depend on the processing

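Of the 25 motile cilia genes that fell, 12 kept their call under every alternative in which they were tested, and 13 lost it at least once, while none of the 25 changed sign. Leaving out 1 array gave 12 to 27 genes lower and 0 to 1 higher. Over all genes these fits gave 2604 to 4943 lower and 2002 to 4430 higher. For other motile cilium genes the ranges were 24 to 44 lower and 4 to 9 higher, and for primary cilium genes 6 to 20 lower and 2 to 5 higher. The lowest counts came without normal brain replicate 1 or 2, which leaves a lone sample assumed to vary like the gliomas. The authors' unscaled values gave 19 motile cilia genes lower and 1 higher (Spag16), 9 primary cilium genes lower and 9 higher, and 3185 of all genes lower and 5598 higher, against 4651 and 4046 in the scaled values. The mean of detected probes gave 2 primary cilium genes higher. Requiring all 5 arrays well above background left 10 choroid plexus genes lower. Without the filter on dim probes the median change of all genes was -0.17.

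The labels pair no samples, and deviations of equal replicate numbers correlated with r = 0.0131 and 0.0490. With 2 normal brain arrays their deviations mirror each other, so the 2 values are not independent. They cannot show whether samples of equal number share an origin. With the replicate number as a block, 26 of the motile cilia genes fell and 1, Spag16, rose (2.64, adjusted p = 0.0219), and Rsph9 no longer passed (adjusted p = 0.0587). Genes with no call in the scaled values could change sign. Dnah11 was 0.27 in the authors' unscaled values and -0.29 to 0.20 with 1 array left out, above 0 without glioma replicate 1 (0.20) or normal brain replicate 2 (0.15). Mlf1 was -0.25 to 0.48 with 1 array left out, below 0 without glioma replicate 2 (-0.21) or normal brain replicate 1 (-0.25). Tekt2 was -0.014 with normexp, -0.32 with the block, and -0.32 (without glioma replicate 3) to 0.49 with 1 array left out. Spag16 was -0.33 as the mean of its detected probes, and -3.02 and -0.046 for its other probes. The cause of these shifts was not tested. A slide block was not run, since all arrays shared a slide.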

Other observations

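Trp73, which in mice is needed for multiciliated ependyma, had levels of 1.11, -0.18 and -1.21 in gliomas 1 to 3, against -1.94 and -1.99 in normal brain. The groups did not overlap and the tumours spread widely, and Trp73 did not pass (1.87 ± 0.68, adjusted p = 0.0696). Deup1, which builds centrioles in bulk in multiciliated cells, had levels of -3.62, -3.46 and -3.68, against -1.81 and -1.95, and fell by 1.70 ± 0.15 (adjusted p = 0.000882), while Plk4, used by dividing cells too, rose. E2f5 and Tfdp1, partners of multicilin that also act in the cell cycle, rose by 1.04 ± 0.18 and 1.39 ± 0.14, and Rfx4 by 1.58 ± 0.17. These genes were picked out after their values were seen.

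A list of spermatid genes was read too, and none of them is a member of the motile cilia set. Of 6 tested, 1 rose and 1 fell, against 24% and 27.5% of all genes. Prm1, Tnp1, Tnp2 and Akap4 were tested only through glioma. Prm1, a protamine that packs sperm DNA, was at least 5952-fold higher in glioma, with levels of 7.57, 7.70 and 7.33, against -4.94 and -5.96, and Spata18 fell by 0.56 ± 0.18 (adjusted p = 0.0483). Prm2, Tnp1, Tnp2 and Akap4 did not pass, with changes of -0.02, 0.001, 0.47 and 0.67. The Prm1 probe is assigned by its RefSeq accession, and whether it reads that transcript alone was not checked.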
